A study of Mus musculus with 3 samples.

Results

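The MHC class II-rich dendritic-like cells of mouse brains with and without breast carcinoma metastases were described from a single CITE-seq run, an assay that counts RNA and barcoded surface antibodies cell by cell. They were chosen by their RNA: cells of deposited cluster 8 with fewer than 2 summed UMIs (unique transcript counts) of the T cell genes Cd3d, Cd3e, Cd3g and Trac, fewer than 2 of the NK cell genes Gzma, Nkg7, Ncr1 and Klre1, and at least 10 of the class II genes H2-Aa, H2-Ab1, H2-Eb1 and Cd74. In all, 212 of 12421 cells, or 212 of the 462 cells of cluster 8, met the rule. The 2 brains with metastases, called metastasis 1 and metastasis 2, held 92 and 114 of them, against 3 each in the 2 naive brains. Brains with metastases came from female C57BL/6 mice aged 2 to 3 months, about 2 weeks after E0771 cells, a mouse mammary carcinoma line, were injected into the carotid artery. Naive brains came from female C57BL/6 mice of the same age without metastases. After perfusion, tissue was dissociated with papain and mononuclear cells were enriched on Percoll, and the labels describe the material as 1 brain hemisphere. Each brain carried its own hashing antibody within 1 pool. Nothing beyond these antibodies tells whether the suspensions came from separate animals or days, so every spread below is between suspensions.

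Dendritic cells take up antigen, load its peptides onto MHC class II molecules and show them to CD4+ T cells. Conventional dendritic cells fall into type 1 (cDC1), which excel at presenting captured antigen on MHC class I to CD8+ T cells, and type 2 (cDC2), which mainly prime CD4+ T cells. Once activated, either type matures, raises costimulatory molecules such as CD86 and the chemokine receptor Ccr7, and moves toward lymph nodes; plasmacytoid dendritic cells (pDC) are a separate lineage known for type I interferon. In the healthy brain dendritic cells are scarce and sit mostly in the meninges and choroid plexus.

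Since the class II genes chose the cells, their levels are given as a description with no test. H2-Aa and H2-Ab1 encode the chains of I-A, the class II molecule that C57BL/6 mice show at the surface, H2-Eb1 encodes the beta chain of I-E, and Cd74 is the invariant chain that guards the peptide groove. H2-DMb1 and H2-DMb2 encode beta chains of the peptide editor H2-M. These genes lie together on chromosome 17 except Cd74, and are switched on by the coactivator Ciita through a conserved set of promoter boxes, of which the Y box is one. The promoters of 4 of these genes are shown because they carry the same Y box letters, TGATTGG, which are in capitals. Each window runs from 250 bases before the annotated start to 50 after it and is credited to RefSeq, build GRCm38.p6: H2-Aa chr17:34287774-34288073 on the minus strand, H2-Eb1 chr17:34305617-34305916, H2-DMb1 chr17:34152941-34153240 and H2-DMb2 chr17:34144999-34145298, the last 3 on the plus strand. Sequences are written 5′ to 3′ in the direction of the gene.
H2-Aa: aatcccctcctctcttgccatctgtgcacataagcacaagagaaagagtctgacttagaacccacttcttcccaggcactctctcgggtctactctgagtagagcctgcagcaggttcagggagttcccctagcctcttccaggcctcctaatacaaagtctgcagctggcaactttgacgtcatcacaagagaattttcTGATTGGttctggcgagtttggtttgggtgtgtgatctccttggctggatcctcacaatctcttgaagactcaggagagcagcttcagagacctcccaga
H2-Eb1: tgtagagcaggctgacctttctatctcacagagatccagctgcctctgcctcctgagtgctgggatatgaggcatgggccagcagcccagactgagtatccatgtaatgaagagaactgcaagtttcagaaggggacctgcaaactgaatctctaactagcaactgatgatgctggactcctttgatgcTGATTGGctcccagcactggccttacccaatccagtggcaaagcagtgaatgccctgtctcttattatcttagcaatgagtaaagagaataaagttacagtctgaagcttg
H2-DMb1: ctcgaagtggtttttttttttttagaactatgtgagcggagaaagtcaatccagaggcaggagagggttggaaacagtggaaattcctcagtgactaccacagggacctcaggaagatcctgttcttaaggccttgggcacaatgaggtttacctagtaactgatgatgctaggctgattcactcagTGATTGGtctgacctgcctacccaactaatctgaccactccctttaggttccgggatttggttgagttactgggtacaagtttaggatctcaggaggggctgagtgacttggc
H2-DMb2: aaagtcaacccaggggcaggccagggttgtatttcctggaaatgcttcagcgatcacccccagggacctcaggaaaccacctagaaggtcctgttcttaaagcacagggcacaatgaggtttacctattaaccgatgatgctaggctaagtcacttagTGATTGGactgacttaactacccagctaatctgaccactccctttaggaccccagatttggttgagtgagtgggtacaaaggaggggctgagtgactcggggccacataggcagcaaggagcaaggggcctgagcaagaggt
The capitals begin 50 bases before the start in H2-Aa, 61 in H2-Eb1, 63 in H2-DMb1 and 92 in H2-DMb2. Of the 18 genes on a list of class II presentation genes, 13 matched the promoter table and 8 held TGATTGG on either strand, against 7.82% of all 32851 promoters of this length. A match is a run of letters and not a measured binding site.

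The threshold of 10 fell on a thin part of the class II distribution. Of the 307 cells of cluster 8 within the T and NK limits, 33 had no class II UMI, 42 had 1 to 4, 20 had 5 to 9, 11 had 10 to 14, 9 had 15 to 19 and 192 had 20 or more. The chosen cells held between 10 and 562 class II UMIs, with a median of 72.5. Among them 8 cells held 1 T cell UMI and 12 held 1 NK cell UMI. Their total depth had a median of 1276 UMIs and 659.5 genes per cell, and the brains as a whole held between 694223 and 57620835 UMIs.

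A few very deep cells weighed heavily on every sum. Scrublet, a doublet caller, marked 16 of the 212 cells, and 15 of these held at least 2 UMIs of a carcinoma list, of which Krt8 and Wfdc2 were the most abundant. The 16 had a median of 16776 UMIs against 1235.5 in the other cells, and held 48.6% of all UMIs. Without them, the levels named below for the dendritic-like cells were mostly higher, and values are given both ways where a statement rests on them.

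H2-Aa stood at 4782 and 5947 CPM (UMIs per 1000000 summed UMIs) in the dendritic-like cells of metastasis 1 and 2, and at 8189 and 9786 CPM without the called doublets. In the cells of deposited cluster 2, which carries monocyte and macrophage genes and was the nearest large myeloid group, it stood at 2023 and 2633 CPM. Both brains thus showed the higher level in the chosen cells. Cd74 was the most abundant of the 4 genes of the rule, with 19213 and 17466 CPM in the dendritic-like cells against 9011 and 10784 CPM in cluster 2. Genes of the pathway that the rule did not name were higher too, although the clustering used them. H2-DMb2 had 198 CPM in each brain, against 14.4 and 25.6 CPM in cluster 2, and 392 and 352 CPM against 12.9 and 28.4 CPM with called doublets left out of both. H2-Oa, part of the inhibitor of H2-M, had 85.5 and 93.1 CPM, against 15.1 and 13.9 CPM (163 and 157 CPM, against 16.4 and 14.7 CPM, without doublets). Ciita had 73.8 and 72.8 CPM, against 40.6 and 28.2 CPM (147 and 120 CPM, against 42.9 and 31.3 CPM, without doublets), so all 3 kept their order. The order was the other way round for Ctss, the protease cathepsin S that trims the invariant chain, with 641 and 672 CPM in the dendritic-like cells against 2912 and 3958 CPM in cluster 2, and 1200 and 1102 CPM against 3092 and 4285 CPM without doublets. So the cells were not higher throughout the pathway.

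**Figure D1:**
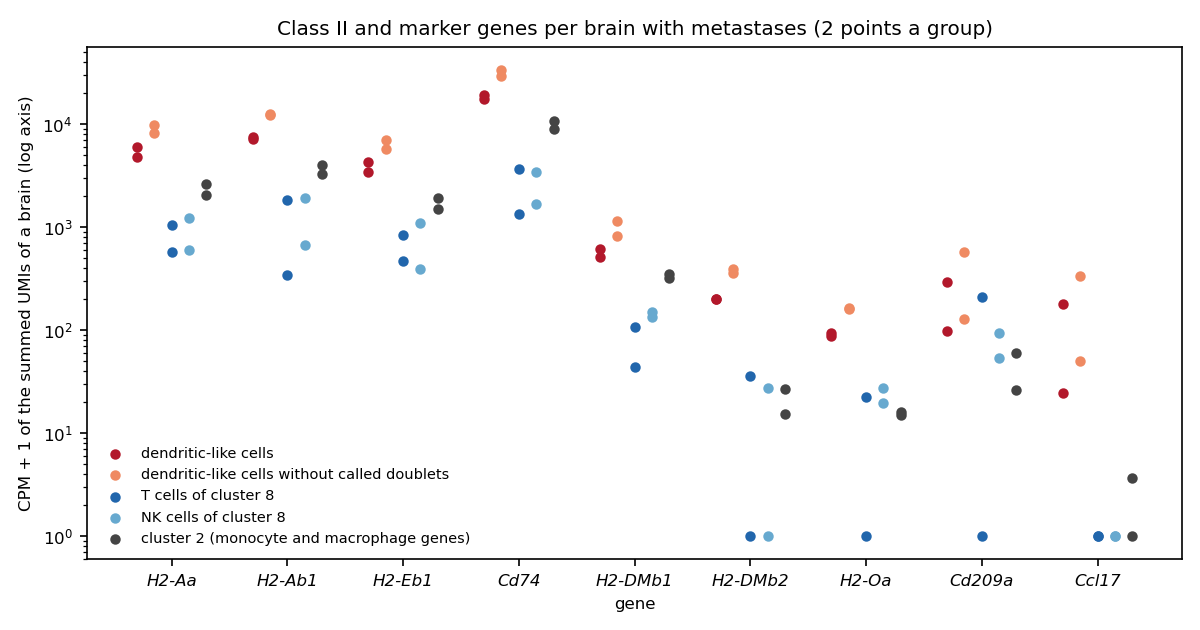
Levels of 9 genes in the 2 brains with metastases, as CPM + 1 on a log axis; each point is 1 brain, and colours mark the dendritic-like cells with and without called doublets, T and NK cells of cluster 8, and cluster 2. H2-DMb2 stands at 198 CPM in the dendritic-like cells of both brains and at 14.4 and 25.6 CPM in cluster 2, while Ccl17 differs between the brains.

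The label was checked against dendritic markers. Cst3, the cystatin C gene that dendritic cells express strongly, had a UMI in 89.6% of the cells, but also in 67.9% of the endothelial-gene cells of cluster 6, which should lack most of these genes and had a median of 914 UMIs. Flt3, the receptor for the growth factor that dendritic cells depend on, had a UMI in 7.55% of the cells, 1.61% of cluster 2 and 0.188% of cluster 6. Plbd1 had one in 27.4%, against 23.4% of cluster 2, so it set the cells little apart from those. Zbtb46, a transcription factor of conventional dendritic cells, had a UMI in 2.36% of the cells and in 3.00% of cluster 6. It thus did not set the cells apart from cluster 6, and whether that share is background was not tested. The markers Cd209a and Ccl17 were not general: Cd209a, a C-type lectin, had a UMI in 19.3% of the cells and Ccl17, a chemokine that attracts CCR4+ T cells, in 3.77%. Macrophage genes were low, with C1qa at 19.4 and 36.4 CPM against 868 and 1474 CPM in cluster 2, and Ms4a7 at 7.77 and 36.4 CPM against 802 and 1008 CPM. The summed macrophage list (10 of 11 genes seen, Mertk at 0) gave 388 and 583 CPM, against 8549 and 16225 CPM, and 637 and 840 CPM against 9019 and 17537 CPM without doublets. Monocyte genes were not low: all 11 of that list were seen, 143 of the 212 cells held at least 2 of their UMIs, and they summed to 2311 and 1889 CPM against 6574 and 4901 CPM in cluster 2. Without doublets the monocyte list summed to 4164 and 2955 CPM, against 7064 and 5367 CPM. Among its genes, S100a4 and Ccr2, are also on the cDC2 list, and the part of monocyte RNA in the values below was not tested. For the NK list, 6 of 10 genes were seen, and Eomes, Prf1 and Klra8, which the rule did not use, were at 0; most of its UMIs were Klrd1 and Klrk1. Klrd1, which encodes CD94, had a UMI in 42.9% of the cells, against 8.07% of cluster 2 and 51.5% of the NK cells of cluster 8. Ttr is the transthyretin gene of the choroid plexus. It had a UMI in 92.9% of the cells, in 91.2% of cluster 6 and in 88.4% of cluster 2. Whether these shares are background was not tested.

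Genes were ranked by their ratio to the other cells outside the 5 large clusters. Cluster 2 is not among those 5, so its cells were in the comparison. The first 20 genes were led by Ccr7, at 262 CPM against 9.57 CPM over all brains. Next came Ifitm1, an interferon-inducible membrane gene, at 754 against 68.2 CPM, Klrd1, H2-DMb2 and Cd209a. The order differed between brains: Ccr7, at 155 and 372 CPM in metastasis 1 and 2, was number 6 of these 20 in metastasis 1 and number 1 in metastasis 2, while Ifitm1, at 812 and 716 CPM, was number 1 and number 3. Class II genes held 7 of the 20 places, counting H2-DMb1, H2-DMb2 and H2-Oa with the 4 of the rule. Il4i1, an enzyme that degrades phenylalanine, Tbc1d4, Il1r2, the decoy receptor for interleukin 1, and Ighm, the heavy chain of IgM, were among the others. This ranking rests on the same RNA that formed the cluster and is a description.

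Subset genes split the cells into classes. A cell took the subset of whichever of 5 lists of 13 genes had the most distinct genes detected, at least 2, and ties stayed unresolved. This gave 45 mature DC cells, 30 cDC1, 50 cDC2, 14 pDC and 6 B cells, and left 67 unresolved. Of the 145 resolved cells 49 led by a single gene, among them 21 of the cDC2 and 9 of the pDC cells. The unresolved comprised 51 cells with fewer than 2 genes of any list and 16 ties, at a median of 1127 UMIs. In metastasis 1 and 2, mature DC cells numbered 16 and 28, or 17.4% and 24.6% of the dendritic-like cells. cDC1 cells numbered 17 and 13 (18.5% and 11.4%) and cDC2 cells 24 and 21 (26.1% and 18.4%). Mean shares over the 2 brains were 20.98% ± 5.07, 14.9% ± 5.003 and 22.3% ± 5.42 (SD, n = 2 brains), so the order of mature DC and cDC2 was within the spread between brains. The pDC class averaged 6.87% ± 1.04 and the B cell class 2.74% ± 2.33. The dendritic label does not cover the 6 B cells.

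**Figure D2:**
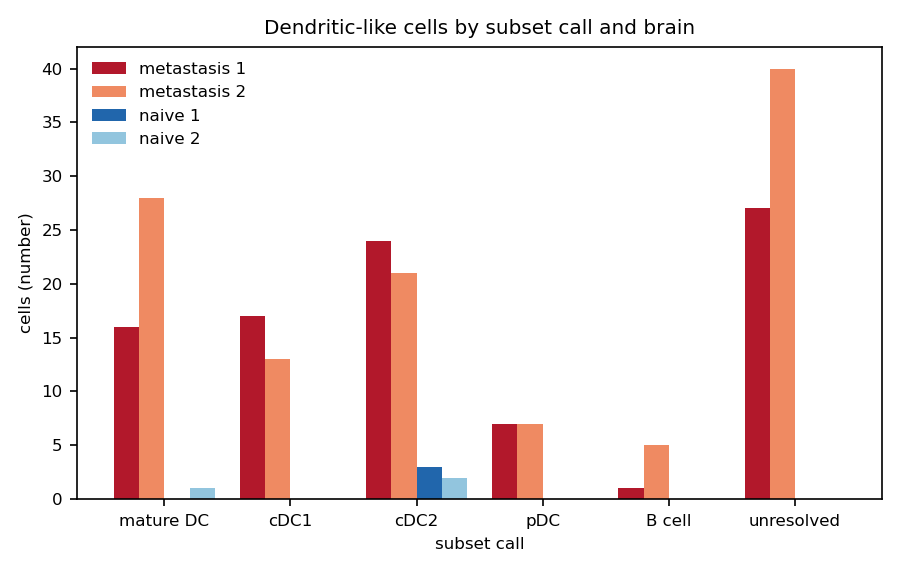
Number of dendritic-like cells by subset call; bars are the 4 brains, those with metastases left of the naive ones. Metastasis 1 and 2 hold 16 and 28 mature DC cells and 24 and 21 cDC2 cells, while naive brains hold 3 and 2 cDC2 cells and 1 mature DC cell in all.

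In the mature DC class the list genes that made the call were Ccr7 (129 of its 134 UMIs in all dendritic-like cells), the actin bundler Fscn1, the membrane protein gene Tmem123, Marcksl1 and Relb, a subunit of NF-kB. Ccr7 had 39 and 88 UMIs in the mature DC cells of metastasis 1 and 2, against 0 and 1 in the cDC2 cells. Ccl22, a chemokine made by mature dendritic cells that attracts regulatory T cells, had 62 UMIs here and 1 in cDC2, but these lay in 15.6% of the mature DC cells. It had 9 UMIs in metastasis 1 and 52 in metastasis 2, so the second brain gave most of them. Il12b, a subunit of interleukin 12, had 5 UMIs in 3 mature DC cells.

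The genes that follow were not on the subset lists. Cd274, which encodes the checkpoint ligand PD-L1, had a UMI in 26.7% of mature DC cells, 3.33% of cDC1 and 2% of cDC2, and in 22.9%, 0% and 2.56% of cells thinned to 1000 UMIs. Thinning left out 10, 6 and 11 cells of these classes. In cluster 6 the share was 2.25%. Cxcl16, a chemokine for CXCR6+ T cells, had a UMI in 55.6% of mature DC, 36.7% of cDC1 and 8% of cDC2 cells (45.7%, 33.3% and 5.13% thinned), against 2.44% of cluster 6. Il21r, the interleukin 21 receptor, was found in 28.9% of mature DC cells and 4% of cDC2 cells (17.1% and 2.56% thinned). Cd40 was found in 24.4%, but in 5.71% after thinning, against 10.0% and 7.69% in cDC2. At equal depth these are too few cells to draw an order.

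The cDC1 class was carried by Irf8, the transcription factor these cells require, with a UMI in 90% of its cells. Irf8 was also found in 42.2% of mature DC, 35.7% of pDC and 8% of cDC2 cells (83.3% against 28.6%, 22.2% and 2.56% thinned). Ppt1 was found in 60.0% of cDC1 cells, Naaa in 53.3% and Batf3, another required factor, in 50%. Less was seen of Ifi205 (33.3%), Tlr3 (23.3%), Sept3 (13.3%), Wdfy4 and Itgae (10% each), and Cadm1 and Cd36 (3.33% each). Xcr1, the receptor for the chemokine XCL1 and the most specific cDC1 marker, had 8 UMIs in 5 cDC1 cells and none in the mature DC and cDC2 classes. Clec9a, a receptor for dead cells, had 3 UMIs in 3 cDC1 cells. Cd24a, outside the lists, had a UMI in 50% of cDC1, against 6.67% of mature DC and 6% of cDC2 cells (37.5%, 8.57% and 5.13% thinned), with 12.8% in cluster 6. Unc93b1, which carries endosomal Toll-like receptors, was found in 50% of cDC1 and 32.0% of cDC2 cells, but in 16.7% and 25.6% after thinning, so no order is drawn.

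The cDC2 class was carried by Cd209a, in 66.0% of its cells and none of the mature DC or cDC1 cells, and less distinctly by S100a4 (68.0%, against 55.6% of mature DC cells) and Ccr2 (42.0%, against 23.3% of cDC1 cells), the receptor that monocytes and their offspring follow to CCL2. Cd209a had 62 UMIs in the cDC2 cells of metastasis 1 and 19 in those of metastasis 2, a level of 1108 and 312 CPM, and of 1583 and 590 CPM without called doublets, so metastasis 1 was higher both ways. Sirpa, Clec10a, Mgl2 and Cd209d, all known in type 2 cells, were found in 30.0%, 22.0%, 16% and 18% of the cDC2 cells. Of the rest of the list, Clec4a2 was found in 28%, Tnip3 in 14%, Itgam in 12%, Irf4 in 2% and Clec4a4 in 0%. Klf4 did not set the class apart, with 16% against 13.3% of mature DC cells (10.3% and 17.1% thinned). Clec4n, which encodes dectin-2 and was not on the subset lists, was found in 28% of cDC2 cells, 4.44% of mature DC cells and 0 of 30 cDC1 cells, which allows a share of up to 10% of cells with a UMI and sets no limit on cells that express it. Ccl17 had 35 UMIs in the cDC2 class and 24 in the mature DC class. In the 2 brains with metastases these were 5 and 29 UMIs in cDC2 cells and 1 and 15 in mature DC cells. The other 9 lay in the few cells of naive 2.

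The pDC class was the smallest of the dendritic classes, and 9 of its 14 cells led by a single gene. Bst2 had a UMI in all 14 of its cells, but it is also a general interferon-response gene with a UMI in 62.3% of all the dendritic-like cells. Tcf4, the factor that pDC need, was found in 57.1% of the class and in 38.1% of cluster 6. Siglech, a surface marker of pDC that microglia also express, had 10 UMIs in 28.6% of the class and none in the mature DC, cDC1 and cDC2 classes. Ly6d was found in 50%. The B cell class held 304 of the 345 UMIs of Igkc, the kappa light chain, and the pDC class 37.

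**Figure D3:**
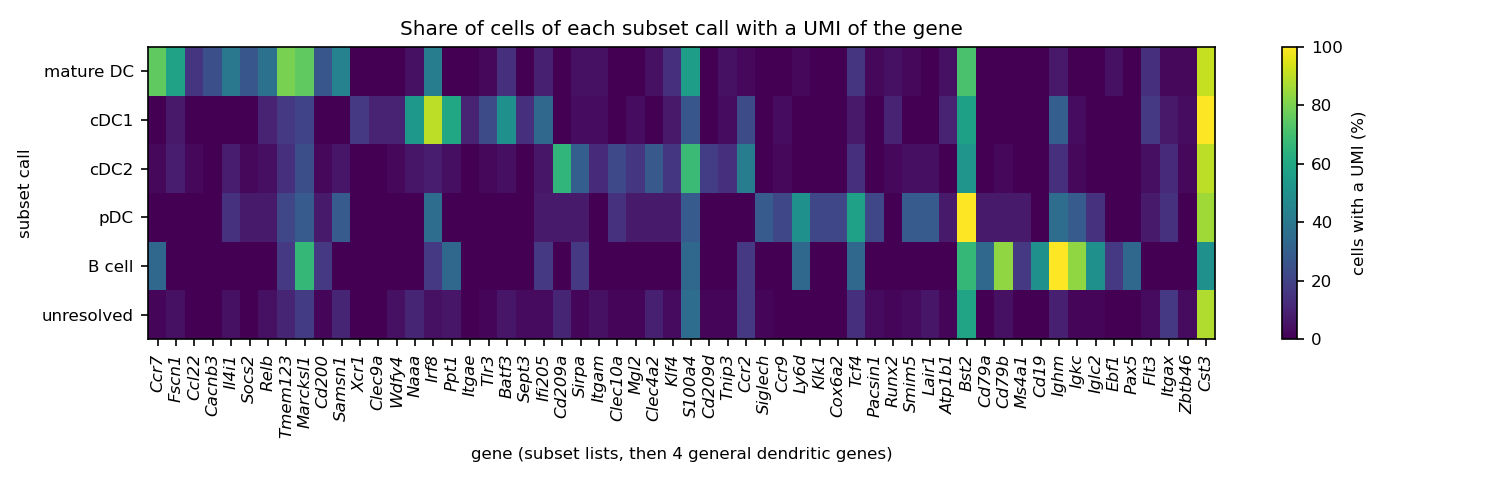
Share of cells with a UMI, on a colour scale from 0 to 100%, for subset list genes (columns) in each subset call (rows). Ccr7 is seen in 75.6% of mature DC cells, Irf8 in 90% of cDC1 and Cd209a in 66.0% of cDC2; the unresolved cells hold little of any list.

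Mature DC and cDC2, the 2 largest resolved classes, were compared over all genes outside the 5 subset lists. The classes were called on the RNA of the same cells, so genes that vary with the list genes were favoured. Leaving out the list genes does not remove this. The p-values of this fit and of the cDC1 fit below are therefore not those of groups fixed beforehand, and serve to rank genes. UMIs were summed per class and brain with metastases and fitted with edgeR's quasi-likelihood test with brain as a block, on 16 and 28 mature DC cells against 24 and 21 cDC2 cells. With all cells, 14 of 1022 genes passed an adjusted p of 0.05 (Benjamini-Hochberg): 5 were higher in mature DC (0.489% of the genes tested) and 9 lower (0.881%). At an unadjusted p under 0.05 there were 81. All 14 separated the classes without overlap over brains, as did 34.1% of all genes tested. When the called doublets were left out, which removed 4 and 2 mature DC cells and 2 and 2 cDC2 cells of metastasis 1 and 2, 444 genes could be tested and 72 passed, 47 higher (10.6%) and 25 lower (5.63%), all 14 among them. DESeq2 on all cells called 1 gene, the fit without the brain block called 1, and calling subsets by summed UMIs or by at least 3 genes called 0 each. Called doublets held 69.8% of the mature DC UMIs and 50.3% of the cDC2 UMIs in the fit with all cells. Each fit rests on 4 sums from 2 brains.

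Ccl5, a chemokine for T cells and NK cells, was the gene with the lowest p. It had 179 and 332 UMIs in the mature DC cells of metastasis 1 and 2, against 3 and 56 in the cDC2 cells, a log2 fold change of 3.11 ± 0.40 (SE, edgeR adjusted p = 6.4e-06; 1.1e-26 to 0.34 over the alternatives). Both brains showed it higher, by 4.37 and 2.32 on the log2 scale. AW112010, an interferon-inducible transcript known from activated immune cells, had 36 and 80 UMIs against 3 and 3 (log2 3.67 ± 0.61, adjusted p = 0.00037). Rgs1, which dampens signalling by chemokine receptors, had 27 and 23 UMIs against 0 and 3 (3.47 ± 0.80). Fabp5, a fatty acid carrier, and Cst3 were the other 2 higher genes, at 2.36 ± 0.57 and 1.37 ± 0.32.

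H2-DMb1 was lower in mature DC, with 12 and 9 UMIs against 68 and 41 in cDC2 cells (log2 -2.96 ± 0.47, adjusted p = 0.00023; 3.5e-07 to 0.57 over the alternatives). No other of the 10 class II presentation genes tested passed, and their median log2 difference was -0.62, against -0.02 for all genes. Without the called doublets that median was -0.11, against -0.04 for all genes, and Cd83 of the list was called higher beside H2-DMb1 lower. The list includes the 4 class II genes that chose the cells. Both medians, and those 4 genes not passing, are therefore a description and no test. The remaining lower genes were Pycard, the adaptor of inflammasomes (1 and 2 UMIs against 24 and 10), Cfp, the complement factor properdin (0 and 6 against 31 and 19), Alox5ap, needed for leukotriene synthesis (3 and 10 against 48 and 28), the actin-binding Cotl1, Wfdc17, Gm2a, Plac8 and Fcer1g. Fcer1g encodes the common gamma chain of activating Fc receptors and of dectin-2, and its difference was -1.62 ± 0.41. Their log2 values ranged from -4.01 for Pycard to -1.62 for Fcer1g. Each of the 14 kept its sign in every setting in which it was measured. They were picked in the main fit, and all settings reuse the same 2 brains and mostly the same cells. The kept signs are therefore no independent support.

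Without the called doublets, more genes of antigen presentation on MHC class I passed. Of the 8 tested on the class I and cross-presentation list, 6 were higher in mature DC and none lower, with a list median of 1.22 against -0.04 for all genes; of all 444 genes 10.6% were higher and 5.63% lower. These were B2m, the light chain of class I molecules, the heavy chains H2-K1 and H2-D1, the immunoproteasome subunit Psmb8, and the proteasome activator subunits Psme1 and Psme2. B2m had 103 and 228 UMIs against 117 and 69 in cDC2 cells (log2 1.10 ± 0.24), in classes of 15990 and 36381 UMIs against 36008 and 22023. With all cells B2m stood at 0.32 ± 0.32 and did not pass (edgeR adjusted p = 1). Psme2 stood at 2.27 ± 0.39 without the doublets and at 0.88 ± 0.41 with them, again not passing in the second fit. Of the 5 interferon-response genes tested without the doublets, Isg15 (2.28 ± 0.40), Irf7 (1.88 ± 0.52) and Ifi27l2a (1.21 ± 0.34) were higher and Ifitm3 lower (-0.95 ± 0.25), against the same 10.6% and 5.63% of all genes. With all cells 5 genes of that list were tested and 0 passed, at a list median of 0.35 against -0.02 for all genes.

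Among the 15 higher genes with the greatest differences in that fit, Birc2, a ubiquitin ligase of NF-kB signalling, had 6 and 13 UMIs against 1 and 1 (log2 3.33 ± 0.78). Cd83, a maturation marker that stabilises class II and CD86 at the surface, stood at 2.44 ± 0.61 with 11 and 32 UMIs against 1 and 7. Tbc1d4, a GTPase regulator of vesicle traffic, reached 4.55 ± 0.78 and Marcks 3.26 ± 0.73. Id2, a transcriptional regulator of dendritic cell fate, had 10 and 33 UMIs against 2 and 6 (2.41 ± 0.62). The tetraspanins Cd63 and Tspan3 stood at 2.92 ± 0.52 and 2.97 ± 0.73, and H2-Q7, a nonclassical class I gene whose reads can be shared with near-identical copies, at 2.97 ± 0.73. Rogdi (2.95 ± 0.69), Zfp36l1, which promotes mRNA decay (2.79 ± 0.70), and Rps27l (2.52 ± 0.47) also passed. Among the lower ones, H2-DMb1 (-2.87 ± 0.48) and Alox5ap (-2.56 ± 0.54) were joined by Ckb, Fxyd5, Cd53, S100a11, Ifitm1 and Vim, between -2.26 and -1.31.

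**Figure D4:**
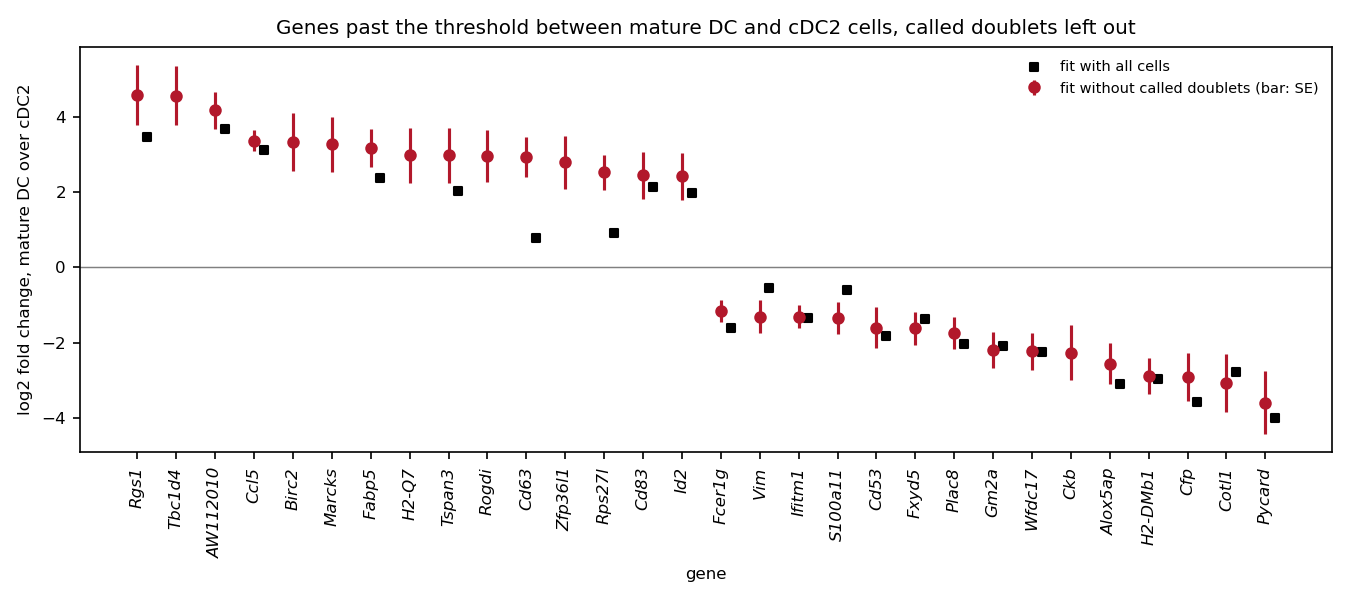
Log2 fold change, mature DC over cDC2, of the 15 higher and 15 lower genes past the threshold without called doublets; circles with bars are that fit and its SE, squares the fit with all cells where the gene was tested. Rgs1 stands at 4.57 and 3.47 in the 2 fits, Pycard at -3.59 and -4.01, and Cd63 at 2.92 and 0.77.

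A second pair, cDC1 over cDC2, was added after the class sizes were known, with 17 and 13 cDC1 cells against 24 and 21 cDC2 cells. With all cells, edgeR called 0 of 820 genes, that is 0% higher and 0% lower, with 67 at an unadjusted p under 0.05; DESeq2 called 3. Without the called doublets 18 of 372 genes passed, 11 higher (2.96%) and 7 lower (1.88%). Cst3 had 492 and 474 UMIs in cDC1 cells against 124 and 105 in cDC2 cells (log2 2.34 ± 0.14), and Id2, on which cDC1 development depends, had 37 and 39 against 2 and 6 (3.47 ± 0.47). Stmn1 and Hmgb2, which are high in dividing cells, stood at 3.11 ± 0.71 and 2.72 ± 0.39. Klrd1 was lower in cDC1, with 5 and 3 UMIs against 70 and 17 (-3.01 ± 0.43), as were S100a6, Tyrobp, Fcer1g, Lgals1, Cfp and Ifitm3. With all cells Id2 stood at 3.60 ± 0.42 and Klrd1 at -2.84 ± 0.52, each with an edgeR adjusted p of 0.19. Of the 3 cell cycle genes tested, Stmn1 and Hmgb2 were the 2 that passed. In all 212 cells the cell cycle list summed to 3434 and 3520 CPM with the doublets and to 2596 and 3105 CPM without them, and its part in these differences was not tested.

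The surface tags did not enter the choice of cells. Values are mean log2(tag count + 1) per brain, and the exact sign-flip test over 2 brains cannot give a p below 0.5, which it gave wherever both brains differed the same way. CD86, the costimulatory ligand of CD28 and CTLA-4, was highest in the mature DC class of the 4 dendritic classes. It stood at 3.79 and 3.83 in mature DC cells of metastasis 1 and 2, against 1.18 and 1.44 in cDC2 cells, a mean difference of 2.50 ± 0.15 (SD, n = 2 brains). Set against cDC1 cells, at 2.03 and 1.96, the mature DC cells were higher by 1.81 ± 0.08. The median CD86 tag count per mature DC cell was 10.5 and 15, against 1 and 2 in cDC2 cells. Cd86 RNA was sparse, with 13, 17 and 6 UMIs in the mature DC, cDC1 and cDC2 classes, and with cells thinned to 1000 UMIs it was found in 14.3%, 12.5% and 5.13% of their cells.

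CD11b, the integrin alpha M chain found on cDC2 and other myeloid cells, stood lower in cDC1, at 2.88 and 3.31, against 4.52 and 4.52 in cDC2 cells, a difference of -1.42 ± 0.31. Mature DC cells, at 4.31 and 4.98, lay below cDC2 in one brain and above it in the other. Itgam, its gene, had 12 UMIs in all 212 cells. CD25, the alpha chain of the interleukin 2 receptor, was low in all classes, with 1.06 and 1.44 in mature DC against 0.71 and 0.48 in cDC2 cells, and CD3e was near 0 (0.14 in each brain over all the cells). Set against cluster 2, the dendritic-like cells as a whole were lower for CD11b (3.85 and 4.01, against 7.22 and 7.34), for CD45 (5.60 and 5.73, against 6.94 and 6.93) and for CD86 (1.95 and 2.23, against 2.91 and 3.09). As a percent of a cell's 6 tag counts, however, CD45 and CD86 were higher in the dendritic-like cells, by 24.5 and 3.71 percentage points, but these shares add up to 100 in each cell, so the lower CD11b alone raises them and they are no separate evidence on CD45 or CD86. CD45 tags stood far above the endothelial-gene cluster 6, which had 0.65 and 1.19. In all, 9 group comparisons of 6 tags each were made.

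**Figure D5:**
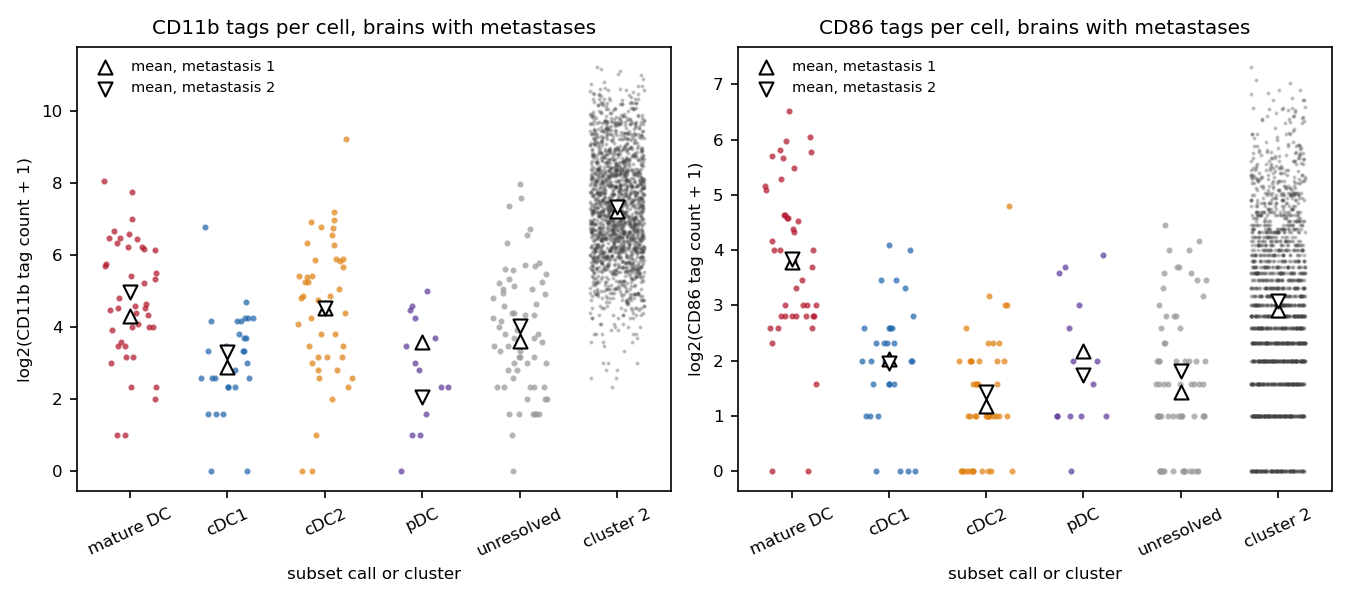
CD11b and CD86 tags per cell as log2(count + 1) in brains with metastases; dots are cells, triangles the mean of each brain. Mature DC cells average 3.79 and 3.83 for CD86 and cDC2 cells 1.18 and 1.44, while cluster 2 lies highest for CD11b, at 7.22 and 7.34.

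Set between conditions, the dendritic-like cells were a larger share of cells in brains with metastases. They were 1.72% (95% exact binomial interval 1.39 to 2.10) and 1.85% (1.53 to 2.21) of all cells of metastasis 1 and 2, against 0.524% (0.108 to 1.53) and 0.952% (0.197 to 2.76) in naive 1 and 2. Outside the 5 large clusters, which make up most cells with metastases, the shares were 6.51% and 6.28%, against 0.609% and 1.03%. Cluster 2 is not among those 5, so its cells were counted in that measure. Within cluster 8 the shares were 50% and 47.1%, against 16.7% in each naive brain. The conditions did not overlap in any of the 3 measures, and the exact two-sided permutation test of 2 against 2 brains gave p = 0.33 for each, the smallest it allows. The intervals cover counting error only.

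The 6 naive cells were too few for a test between conditions and are given as they are. Their own hashing tag had 31 to 362 counts, against at most 6 for the next tag. By subset genes, 5 were cDC2 and 1, in naive 2, was mature DC with 2 Ccr7 UMIs. Cd209a had 4, 3 and 3 UMIs in the cells of naive 1 and 4, 0 and 0 in those of naive 2. Its level was 291 and 97.1 CPM in metastasis 1 and 2. In naive 1 and 2 it was 2805 CPM (95% exact Poisson interval 1345 to 5159) and 1057 CPM (288 to 2707). Subset makeup differed, as 5 of the 6 naive cells were cDC2 and Cd209a is on the cDC2 list. In cDC2 cells alone Cd209a stood at 1108 and 312 CPM in metastasis 1 and 2, and at 1583 and 590 CPM without called doublets. The 4 class II genes of the rule summed to 34506 and 35154 CPM with metastases, against 101262 and 100687 CPM in the naive cells. The called doublets were all in brains with metastases. Without them, over all subsets, Cd209a stood at 572 and 127 CPM in metastasis 1 and 2. Cd74 then stood at 33272 and 29367 CPM in metastasis 1 and 2, against 52174 and 60518 CPM in naive 1 and 2. S100a8 and S100a9, neutrophil genes, had at most 2 UMIs each in either brain with metastases, against 20 and 18 in the cells of naive 1 and 0 each in naive 2. The part of neutrophil RNA in the levels of naive 1 was not tested. No Xcr1 or Clec9a UMI was found in the 6 cells, where 3 UMIs would be 842 and 793 CPM, far above the level of these genes with metastases. CD11b tags had a median of 12.5 and 16.5 counts in metastasis 1 and 2, against 80 and 154 in naive 1 and 2, over cells that differ in subset makeup. Among cDC2 cells alone the median was 27 counts in each brain with metastases. It was 80 and 219.5 in the 3 and 2 cDC2 cells of naive 1 and 2. The difference between conditions was not tested.

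Other gene groups are given by their summed level in the dendritic-like cells of metastasis 1 and 2 against cluster 2. Chemokines (14 of 15 list genes seen) summed to 1705 and 3767 CPM against 6824 and 6489 CPM, and to 2768 and 6494 CPM against 7264 and 7095 CPM with called doublets left out of both groups. Cxcl10, an interferon-induced chemokine named in the study's title, had 136 and 64.7 CPM against 492 and 290 CPM (196 and 120 CPM, against 532 and 318 CPM, without doublets), and 12, 2 and 4 UMIs in the mature DC, cDC1 and cDC2 classes. Interferon-response genes (20 of 20) summed to 7012 and 6429 CPM against 11545 and 11225 CPM, and to 10010 and 8654 CPM against 12212 and 11972 CPM without doublets. Il1b, the inflammatory cytokine, had 388 and 320 CPM against 1257 and 1001 CPM (637 and 480 CPM, against 1343 and 1087 CPM, without doublets). It had a UMI in 50% of cDC2, 40.0% of mature DC and 20% of cDC1 cells (43.6%, 31.4% and 12.5% thinned). Immediate early genes (13 of 14), which tissue digestion can raise, summed to 2696 and 2929 CPM against 6276 and 5625 CPM. Without called doublets they summed to 3584 and 3690 CPM, against 6583 and 6044 CPM.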

How the data were processed

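RNA and 6 surface antibody tags were measured in 12421 cells of 4 hashed brains in 1 pooled 10x Chromium 3' v2 run with 12421 distinct barcodes, so replicates are brains told apart by hashing tags. The design text speaks of 6 pooled samples; the files used here hold 4 hashing antibodies. The deposited RNA and tag tables hold whole-number raw counts. Per the submitters' processing notes, Cell Ranger 3.0.2, Seurat 3.0.1 and mm10 were used. The deposited per-cell table gives the authors' hashing calls, cluster numbers and mitochondrial percent. Members and gene lists were chosen with earlier results of these data known.

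Doublets were called with Scrublet in scanpy 1.11.5 (expected rate 0.08, score threshold 0.407, 220 cells or 1.77% called) and kept unless stated. No correction for free RNA was made. CPM values are shares of summed UMIs. Class sums were tested with edgeR 4.0.16 in R 4.3.3 (TMM, filterByExpr, quasi-likelihood test, brain as block, adjusted p threshold 0.05), and in DESeq2 1.42.0 as an alternative, after a check on simulated data. SE is an approximate standard error of a log2 fold change. It was derived as the absolute log2 fold change divided by the square root of the quasi-likelihood F statistic. Named genes are those detected on the fixed lists, the 20 leading genes (20 CPM added, UMI in 10% of cells) and up to 15 called genes per direction that did not overlap over brains. Naive brains had too few cells to enter the class fits. Promoters came from a RefSeq table (GRCm38.p6). Certain genes were left out and are not analysed here.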

Additional observations from a re-analysis of the deposited data

How the results depend on the processing

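The number of genes past the threshold moved most. For mature DC over cDC2 it was 14, and became 1 with DESeq2 and 1 with no replicate block, 0 with subsets by summed UMIs and 0 with at least 3 distinct genes, 72 without called doublets, 25 with cells thinned to 1000 UMIs and 33 without cells holding other cells' RNA. The last, chosen after seeing the data, left out cells with 2 or more macrophage, carcinoma or neutrophil UMIs; the planned form with the choroid plexus list was not run, as Ttr was in nearly all cells. RLE scaling (13) and no filter (17) stayed within 1.5 times. For cDC1 over cDC2 the count of 0 became 3 with DESeq2, 28 with RLE scaling, 24 with no filter, 4 with no replicate block, 21 with at least 3 distinct genes, 18 without called doublets, 1 thinned and 1 without other cells' RNA. No paired analysis beyond the brain block was possible because the labels give 1 pooled sample of each kind. Leaving out a brain leaves no residual degrees of freedom and gives a value with no test. The causes were not tested.

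The share of cells, metastasis minus naive, stayed above 0 in every setting. Outside the large clusters it was 5.58 percentage points, and 4.98 with at least 20 class II UMIs, 6.22 with at least 5 and 4.93 with no T or NK UMIs; within cluster 8 it was 31.9, and 27.4, 36.8 and 27.0. With each brain left out, the shares kept their sign. The cDC2 share of 22.3% was 13.7% with at least 3 distinct genes. The pDC share of 6.87% was 9.39% with at least 5 class II UMIs, 14.1% by summed UMIs, 4.58% with at least 3 genes and 4.91% thinned. The unresolved share of 32.2% was 22.5% by summed UMIs, 49.4% with at least 3 genes and 37.0% thinned.

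Tag differences, in log2 units, moved as follows. CD25 of mature DC over cDC2 was 0.65, and ranged from 0.35 to 0.96 with 1 brain left out. CD11b against cluster 2 was -3.35, and -3.28 with at least 20 class II UMIs, -3.40 with at least 5 and -3.48 without doublets. CD86 against cluster 2 was -0.91, and -1.03 without doublets. CD86 of mature DC over cDC1 was 1.81, and 1.91 with at least 20 class II UMIs, 1.93 with no T or NK UMIs and 1.69 without doublets. As a percent of a cell's tags, CD45 and CD86 against cluster 2 reversed to 24.5 and 3.71, a closed share that the lower CD11b raises. CD11b of mature DC over cDC2, at 0.12, reversed to -0.044 without doublets, to -5.62 as a percent of tags, and ranged from -0.22 to 0.46 with 1 brain left out.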
